A study of Mus musculus with 4 samples.

Results

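Interferon-stimulated genes were examined in mouse mitral valve as a list of 9 genes (Irf1, Irf7, Isg15, Ifit1, Ifit3, Ifitm3, Oasl2, Bst2 and Samhd1). Members were all probe sets of the expression array annotated to exactly 1 of these genes, which gave 11 of the 22690 probe sets, covering 8 of the 9 genes. Samhd1 was read by 4 probe sets and the other 7 genes by 1 each. The probe set that carries the name Isg15 is annotated to 2 genes (Isg15 and Gm9706), so Isg15, a ubiquitin-like modifier, has no value here.

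The study profiled mitral valve RNA on 4 arrays read in 1 colour. The heterozygous group (Het) held 2 arrays labelled Fbn1 C1039/+, the homozygous group (Hom) held 1 array labelled Fbn1 C1039G/C1039G, and the wild-type group (WT) held 1 array labelled Fbn1 +/+. Fbn1 encodes fibrillin-1, the glycoprotein of extracellular microfibrils, and missense alleles of it cause Marfan syndrome in humans; the substituted residue is missing from the Het label, and the same allele as in Hom is assumed. The mutation lies in the animals' own gene, with no Cre driver or treatment named in the labels, and age, sex, strain background and whether an array held 1 animal or a pool are not given in the sources used here. P-values therefore cannot be read as measuring the spread between animals. For the group comparisons they rest on the spread between the 2 Het arrays, pooled in part over all probe sets of a fit. No spread between arrays of WT or of Hom enters them. Precision is limited throughout by having 4 arrays.

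Type I interferons bind the receptor IFNAR1/IFNAR2, and the signal reaches interferon-stimulated response elements (ISREs) in gene promoters. Interferon gamma acts through gamma-activated sites (GAS), and Irf1 is a classical target gene. The products of the induced genes block viral entry, translation, replication or release, and in unstimulated tissue many are held at a low level by tonic interferon signalling.

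Promoter sequences of 4 members are printed as examples, not as a sample of the array patterns. All 4 carry a match to a motif defined below, whereas Oasl2, which was highest on the WT array, carries none. The 4 are Ifit1 and Ifit3, highest on the WT array, Bst2, highest in Het replicate 2, and Irf1, which carries a GAS match. Each shows the 170 bases before the annotated transcription start, 5′ to 3′ on the strand of the gene, from RefSeq on GRCm38.p6, with capitals marking every base in an ISRE match (GAAA, any 2 bases, GAAA, on either strand) or a GAS match (TTC, any 3 bases, GAA, which reads alike on both strands). Ifit1 lies at chr19:34640719-34640888 (+), Ifit3 at chr19:34583359-34583528 (+), Bst2 at chr8:71537473-71537642 (-) and the first Irf1 start at chr11:53769844-53770013 (+).
Ifit1: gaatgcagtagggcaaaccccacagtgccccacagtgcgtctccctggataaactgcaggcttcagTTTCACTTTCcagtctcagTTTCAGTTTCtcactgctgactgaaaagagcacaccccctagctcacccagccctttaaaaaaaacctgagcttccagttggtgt
Ifit3: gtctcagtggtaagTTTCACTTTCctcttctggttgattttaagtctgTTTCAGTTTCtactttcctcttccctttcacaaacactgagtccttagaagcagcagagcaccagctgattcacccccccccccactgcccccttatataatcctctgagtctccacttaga
Bst2: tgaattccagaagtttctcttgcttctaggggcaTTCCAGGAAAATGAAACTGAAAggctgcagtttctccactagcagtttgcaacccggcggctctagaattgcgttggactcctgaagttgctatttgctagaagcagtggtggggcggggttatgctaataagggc
Irf1: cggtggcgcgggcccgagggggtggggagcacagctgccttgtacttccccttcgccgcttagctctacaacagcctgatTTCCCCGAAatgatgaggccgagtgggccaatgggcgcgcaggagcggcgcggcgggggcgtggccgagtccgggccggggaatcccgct

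All 9 listed genes had a promoter window of 300 bases in that table (250 before the start and 50 after it), Irf1 with 2 starts. An ISRE match was found for 5 of the 9 genes (Ifit1, Ifit3, Bst2, Ifitm3 and Isg15), against 3.99% of 27025 genes with a window. Ifit1 and Ifit3 each held 2 such matches on the strand opposite to transcription, with the same pair of matched words in the same order. In Bst2 the 2 ISRE matches overlapped each other, and only the first of them overlapped the GAS match. The 2 ISRE matches of Ifitm3 began 3 and 20 bases into the transcribed part. A GAS match was found for 4 of the 9 genes (Irf1, Bst2, Ifitm3 and Samhd1), against 9.55% of genes. The windows of Oasl2 and Irf7 held neither set of letters. The genes were listed as interferon targets, so these matches describe the sequences and are no result of the arrays.

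Het replicate 2 stood apart from the other arrays, which bears on every Het value. The signal at the 3′ end of Actb over that at its 5′ end, which is higher for shorter RNA, was 3.04 there, against 2.16 to 2.25 on the other arrays. For Gapdh it was 4.65 there, against 3.19 to 4.18. Its summed intensity of 23 macrophage markers was 9074, against 5072 in Het replicate 1, 5749 in Hom and 5916 in WT. The 16 cardiomyocyte markers summed to 21433 in Het replicate 2 and to between 44039 and 56161 elsewhere. Of these, 14 were lowest in Het replicate 2. Myl7 was highest there, at 2659, against 1364 in Het replicate 1, 1348 in Hom and 1673 in WT. Myl4 was lowest in Hom, at 1207.5. All 13 interstitial and fibroblast markers read above the floor of 18.9 on all arrays. They summed to 41952 in Het replicate 2, against 63243 in Het replicate 1, 61480 in Hom and 72837 in WT. Of the 13, 10 were lowest in Het replicate 2, 1 (Thbs2) was highest there and 9 were highest in WT. Endothelial markers summed to 5148 in Het replicate 2, against 7189 in Het replicate 1, 6771 in Hom and 7521 in WT, with 12 of 13 lowest in Het replicate 2. Of 8 cartilage and tendon type markers of valve, 1 was at or below the floor on all arrays: Cnmd, the chondromodulin of valve leaflets. The others read above it on every array, among them Fmod (655.5 and 657.8 in Het, 1067 in Hom and 1011 in WT) and Tnmd (73.7 and 39.8 in Het, 51.3 in Hom and 144.2 in WT). Fewer cells of a type and less RNA per cell cannot be told apart in such bulk samples.

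The values below are intensities as deposited, and where 2 values are given for Het they are those of replicates 1 and 2. Differences are on the log2 scale with intensities below 18.9, the 25th percentile of all values, set to that floor. The test across probe sets used probe sets whose mean reached 62.6, which is the median of such means: 7 of the 11 member probe sets reached it, from Irf1, Irf7, Ifitm3 and Samhd1, and those of Ifit1, Ifit3, Oasl2 and Bst2 did not. For these 4 genes the test values come from a fit with no level filter. In the filtered fit 0 of 11316 probe sets passed an adjusted p of 0.05 in limma for Het against WT, Hom against WT, Hom against Het or the number of mutant alleles (0% each). At an unadjusted 0.05, 128 (1.13%), 66 (0.583%), 104 (0.919%) and 87 (0.769%) probe sets passed in those 4 comparisons; with no level filter the shares were 7.64%, 7.99%, 7.88% and 3.06%. At that level the members that passed against WT were Samhd1 probe set 1420273_x_at in the filtered fit (1 of 7) and Ifit1 and Oasl2 in the unfiltered fit (2 of 11), for Het and for Hom. No member probe set passed the adjusted threshold with or without the level filter.

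**Figure D1:**
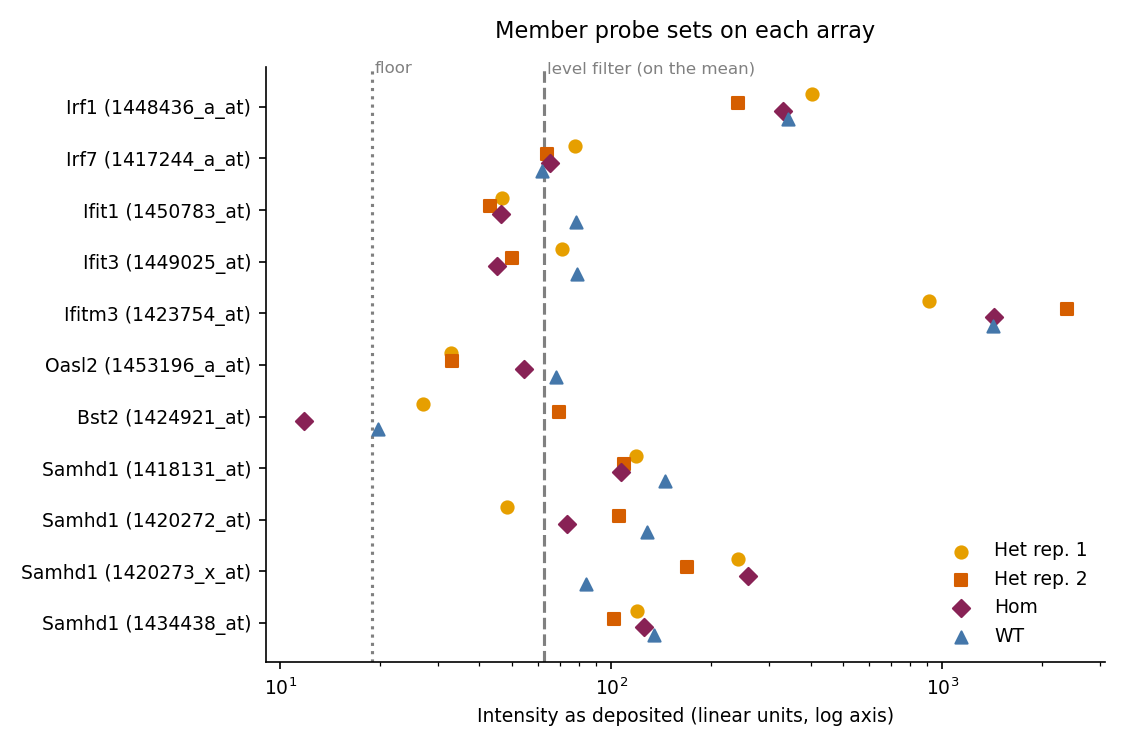
Intensity of each member probe set (horizontal axis, linear intensity units on a log scale) on the 4 arrays, 1 symbol for each array, with the floor (dotted) and the level filter (dashed, applied to the mean). Ifitm3 spans 910.5 to 2374, Bst2 is highest in Het replicate 2 at 69.4, and the WT symbol is highest for Ifit1, Ifit3, Oasl2 and 3 of the 4 Samhd1 probe sets.

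Among the transcription factors, Irf1, which is induced by interferon gamma and activates further interferon target genes, read 405.3 and 241.5 in Het replicates 1 and 2, 330 in Hom and 341.3 in WT. The Het arrays lay on either side of WT and Hom, so the groups overlapped. The Het mean of 323.4 ± 115.8 (SD, n = 2) lay 0.13 log2 units below WT (SE 0.50 in limma), and Hom differed from WT by -0.05 (SE 0.58). The sign of the Het difference rests on Het replicate 2, since Het replicate 1 alone lay 0.25 above WT.

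Irf7, the factor that amplifies type I interferon production and is itself induced by interferon, read 77.6 and 64.1 in Het, 65.1 in Hom and 61.8 in WT. All 3 mutant arrays were above WT, and by little: the log2 differences from WT were 0.33 and 0.05 in Het and 0.08 in Hom. In limma the Het difference was 0.19 (SE 0.47). Of the 7 tested member probe sets 2 had all 3 mutant arrays above WT, Irf7 and 1 of Samhd1, against 19.4% of those tested; with no level filter it was 2 of 11, against 13.9%.

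Among the effectors, Ifit1, Ifit3 and Oasl2 were lower on all 3 mutant arrays than on the WT array. Ifit1, a protein that binds viral RNA with foreign 5′ ends and blocks its translation, read 46.7 and 43 in the Het arrays and 46.4 in Hom, against 78.2 in WT. The 3 mutant arrays lay close together and apart from WT. Het was lower by 1.75-fold and Hom by 1.69-fold. With no level filter the limma adjusted p was 0.54 for Het and 0.57 for Hom (unadjusted p = 0.0298 and 0.0401; 7.64% and 7.99% of all probe sets passed an unadjusted 0.05).

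Ifit3, which forms complexes with Ifit1 and lies near it on chromosome 19, read 71.2 and 50.2 in the Het arrays, 45.1 in Hom and 78.6 in WT. Het replicate 1 was close to WT, with a difference of -0.14, whereas Het replicate 2 and Hom differed from WT by -0.65 and -0.80 log2 units. Both limma adjusted p-values were 1 with no level filter. Ifit3b is a near-identical copy of Ifit3, and how far the probe set reads it was not tested.

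Oasl2, an interferon-induced protein related to the 2′-5′-oligoadenylate synthetases, read 32.8 and 33 in the Het arrays, 54.6 in Hom and 67.9 in WT. The Het arrays nearly coincided and lay below both other arrays. Het was 2.06-fold lower than WT, with a log2 difference of -1.05 (SE 0.02) and a limma adjusted p of 0.37 with no level filter (unadjusted p = 0.0022). The small SE reflects only how near the 2 Het arrays were to each other. Oasl2 was the 1 member probe set of 11 that lay 2-fold or more below WT on each Het array without the level filter, against 0.796% of all probe sets. That size was not kept with the floor at the 40th percentile (-0.71), with quantile normalization (-0.93) or with median centring (-0.94).

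Of the 11 member probe sets, 6 had all 3 mutant arrays below WT (Ifit1, Ifit3, Oasl2 and 3 of Samhd1), against 18.7% of all probe sets with no level filter. Among the 7 probe sets that reached the filter, 3 did, all of Samhd1, against 20% of those tested. Those 3 read 1 gene on the same arrays, so they do not count as separate genes. Another Samhd1 probe set, 1420273_x_at, had all 3 mutant arrays above WT. All these differences subtract the same WT array, and an exact permutation of 1 array against 3 cannot give a one-sided p below 0.25. Ifit1, Ifit3 and Oasl2 also read below 80 on every array, close to the level of the filter or below it. Whether they stood above the array's background was not tested.

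**Figure D2:**
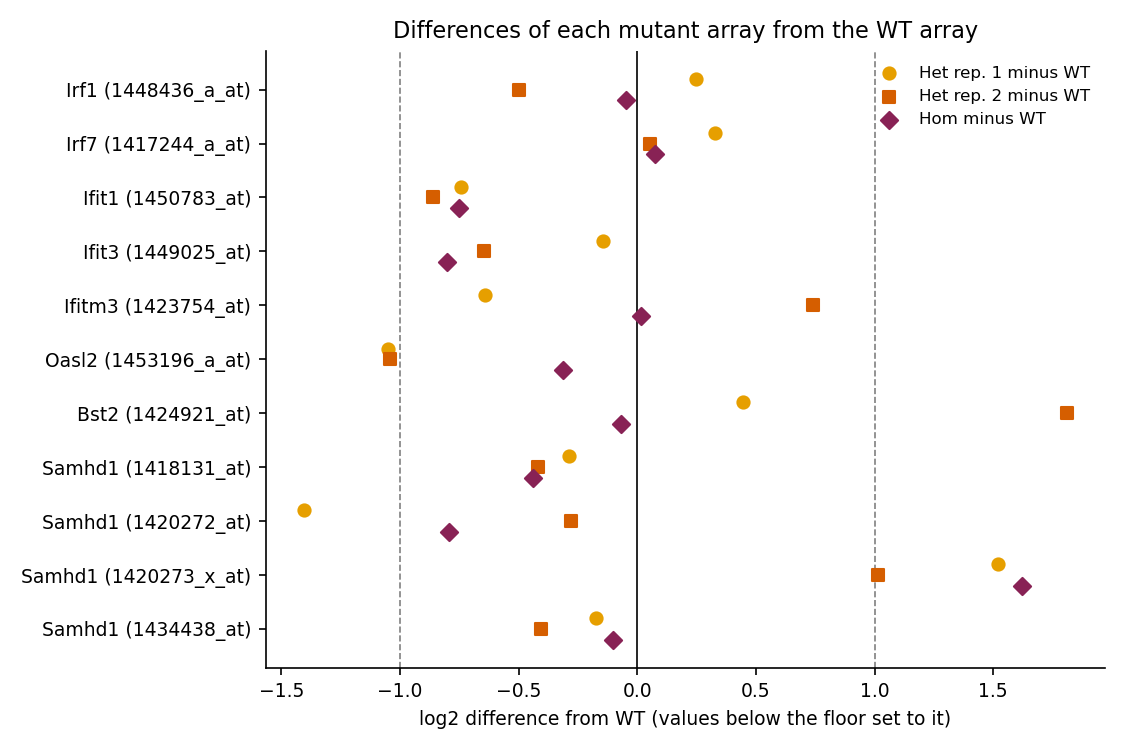
Log2 difference from the WT array (horizontal axis) of Het replicate 1, Het replicate 2 and Hom for each member probe set; dashed lines mark 2-fold. Ifit1, Ifit3 and Oasl2 lie left of 0 on all 3 mutant arrays, Ifitm3 lies on either side of 0 in the 2 Het arrays, and 1 Samhd1 probe set lies right of the 2-fold line on all 3 while its other 3 lie left of 0.

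The membrane restriction factors followed another pattern. Ifitm3, which sits in endosomal membranes and blocks the fusion of entering viruses, read 910.5 and 2374 in the Het arrays, 1436 in Hom and 1420 in WT. Hom and WT were nearly equal (log2 difference 0.02), while Het replicate 1 lay 0.64 below WT and Het replicate 2 0.74 above it. The Het mean was 1642 ± 1035 (SD, n = 2), and its log2 difference from WT, 0.05 (SE 0.57), was far smaller than the spread between the 2 Het arrays.

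Its paralogs Ifitm2 and Ifitm1 were also highest in Het replicate 2. Ifitm2, named after its values were seen, read 797.2 and 1943 in Het, 1130 in Hom and 1143 in WT. Ifitm1 read 92.2 and 218.8 in Het, 68.9 in Hom and 60 in WT and, unlike Ifitm3, was lowest in WT. Ifitm2 and Ifitm3 are very similar in sequence, and how far their probe sets share signal was not tested.

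Bst2 (tetherin), which holds budding enveloped viruses at the cell surface, read 27 and 69.4 in the Het arrays, 11.8 in Hom and 19.8 in WT. It stood out only in Het replicate 2, which was 3.51-fold above WT and 2.57-fold above Het replicate 1. Hom was below the floor, so Het replicate 2 was at least 3.67-fold higher than Hom. With no level filter the Het difference from WT was 1.13 (SE 0.98, limma adjusted p = 1). It was 0.37 with the floor at the 40th percentile and 0.45 without Het replicate 2.

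Het replicate 2 was the highest array for 2 of 11 member probe sets (Ifitm3 and Bst2), against 19.8% of all probe sets, and for 1 of the 7 tested, against 30.7%. Within the Het genotype, 3 of 11 member probe sets were at least 2-fold higher in Het replicate 2 than in Het replicate 1 (Ifitm3, Bst2 and Samhd1 probe set 1420272_at), against 3.22% of all probe sets with no level filter. Of those past the filter 2 of 7 were, against 3.88%, and none was 2-fold lower, against 6.11% (6.72% with no level filter). Over the probe sets tested, 439 were 2-fold higher and 691 lower in Het replicate 2, and this split turned to 929 and 349 when arrays were centred on a common median. Most macrophage markers moved in the same direction: 19 of 23 were highest in Het replicate 2, among them Lyz2 (322.3 and 858.1 in Het, 339 in Hom and 314.5 in WT) and Csf1r (1021 and 1893 in Het, 1275 in Hom and 1282 in WT). Other probe sets of Csf1r were at 0.03 and -0.29 for Het against WT. Against that direction, 2 of the 23 were lowest in Het replicate 2: Adgre1 (408.5 and 249.4 in Het, 329.5 in Hom and 322.7 in WT) and Cx3cr1 (146.4 and 103.6 in Het, 149.3 in Hom and 140.9 in WT). None of the 23 was at 0, and Cd163 and Itgam were at or below the floor on some arrays. Platelet markers were also highest there at 6 of 8 genes, with sums of 2634 and 4100 in Het, 1301 in Hom and 1427 in WT. Erythroid markers summed to 1286 and 3140 in Het, 1634 in Hom and 1412 in WT. Of these 6 genes 3 were highest in Het replicate 2, and Alas2 gave most of the sum there, at 2255. Hba-a2 was lowest there, at 37.8 and 23.3 in Het, 35.1 in Hom and 31.8 in WT, and Epb42 was at or below the floor on all arrays. The part of any of these cell types, or of RNA integrity, in the values of Ifitm3 and Bst2 was not tested.

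Markers of lymphocytes and plasmacytoid dendritic cells were read in the same way. Of the 11 T and NK cell markers with a probe set, 9 were at or below the floor on at least 1 array, including Cd3d, Cd3e and Cd3g, and the list summed to between 384.3 and 426.3 with WT lowest. Thy1, which fibroblasts also express, gave the largest share of that sum, at 214.2 and 197 in Het, 223 in Hom and 185.4 in WT. The plasmacytoid dendritic cell list holds Bst2 and Irf7 themselves. Its member Ccr9 read 15.3 and 11.4 in Het, 20.8 in Hom and 10 in WT. Tcf4, which many cell types express, read 697.7 and 738 in Het, 597.2 in Hom and 763.7 in WT. Ly6d, lowest in Het replicate 2, read 35.9 and 4.5 in Het, 13.1 in Hom and 23.4 in WT. The 6 B cell markers summed to 420.7 and 308.9 in Het, 415 in Hom and 375.3 in WT, with 4 of them lowest in Het replicate 2.

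Samhd1, which degrades deoxynucleoside triphosphates and limits the accumulation of DNA in the cytosol, gave readings that depended on the probe set. Probe set 1420273_x_at read 241.4 and 169.8 in the Het arrays and 259.1 in Hom, against 84.1 in WT, so that all 3 mutant arrays were at least 2-fold above WT. The x in its name marks probes that may cross-hybridise with other transcripts. The differences in the filtered limma fit were 1.27 for Het (SE 0.48) and 1.62 for Hom (SE 0.55), and neither passed the adjusted threshold. Both passed an unadjusted 0.05 in that fit only, and neither did with no level filter.

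The other 3 probe sets of Samhd1 went the other way on every mutant array. Probe set 1418131_at read 119 and 109 in the Het arrays, 107.2 in Hom and 145.5 in WT. Probe set 1434438_at read 119.6 and 101.8 in the Het arrays, 125.9 in Hom and 135 in WT. Probe set 1420272_at was the most variable, with 48.3 and 105.5 in the Het arrays, 73.7 in Hom and 127.9 in WT; Het replicate 1 was 2.65-fold below WT.

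For these 3 probe sets the Het differences from WT ran from -0.84 to -0.29 and the Hom differences from -0.80 to -0.10. None of them passed an unadjusted 0.05 in limma. The mean over all 4 probe sets was -0.05 for Het (SD 0.92 between probe sets) and 0.07 for Hom (SD 1.07), so that the spread between probe sets of the gene exceeded any common difference, and no direction is given for Samhd1. Probe set 1420273_x_at was also the only member at least 2-fold higher than WT in both Het arrays (1 of 7 tested, against 0.292%; 1 of 11 with no level filter, against 0.442%) and the only one 2-fold higher in Hom (1 of 7, against 0.698%; 1 of 11, against 1.9%). In Hom no member was 2-fold lower than WT, against 0.539% of those tested and 1.59% with no level filter.

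**Figure D3:**
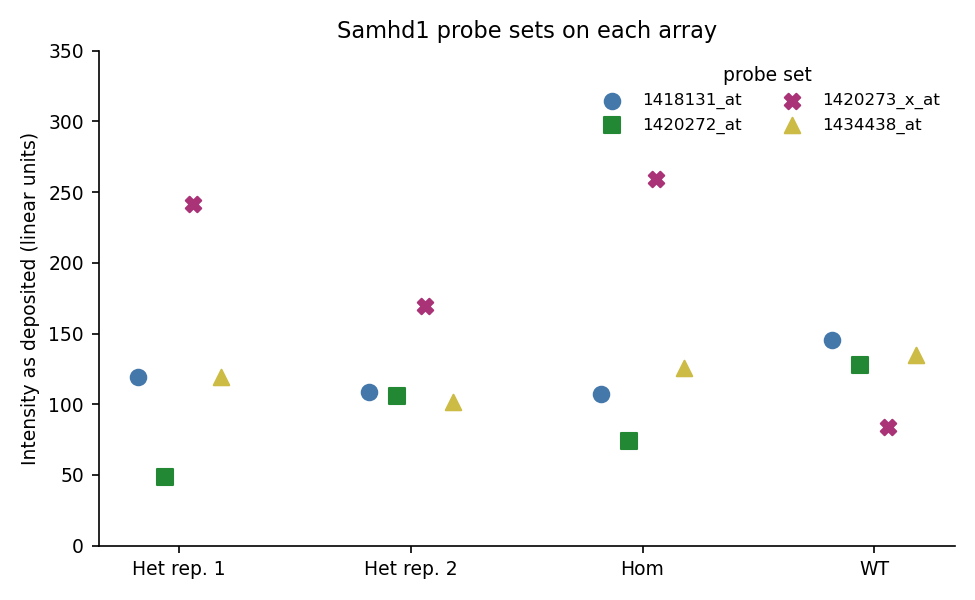
Intensity (vertical axis, linear units) of the 4 Samhd1 probe sets on each array, 1 symbol and colour for each probe set. Probe set 1420273_x_at is lowest on the WT array, at 84.1, while the other 3 are highest there, at 127.9 to 145.5.

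Over all 11 member probe sets the median difference from WT was -0.18 and -0.41 in Het replicates 1 and 2, and it was -0.10 in Hom. Over the 7 tested member probe sets it was -0.18 and -0.28 in Het and -0.05 in Hom, beside 0.01 and -0.07 in Het and 0.01 in Hom over the 11316 tested probe sets. Over all 22626 probe sets with no level filter the medians were 0. The members did not shift as a block: 4 of 11 were above WT in each Het array and 3 of 11 in Hom. With 1 probe set for each gene, the brightest, the medians were 0.05 and -0.22 in the Het arrays and -0.06 in Hom. For Samhd1 the brightest was the probe set that may cross-hybridise, at 1.52 in Het replicate 1, where its other probe sets lay below WT. With the mean of a gene's probe sets instead, the medians were -0.12 and -0.26 in Het and -0.06 in Hom. The sign in Het replicate 1 therefore depends on how Samhd1 is read.

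For Hom against Het, the median difference over the 11 probe sets was 0.05, beside 0.04 over all tested. No member probe set was 2-fold higher or lower in Hom than in both Het arrays, against 0.835% and 0.424% of all probe sets with no level filter and 0.23% and 0.239% of those tested. Oasl2, at 54.6 in Hom against 32.8 and 33 in Het, was 1.66-fold higher, a log2 difference of 0.73 (limma adjusted p = 0.33 with no level filter), which was 0.39 with the floor at the 40th percentile. Bst2 was lower in Hom than in both Het arrays, but its Hom intensity was below the floor, so the size of the difference is set by the floor: it was -1.20 as processed, -1.88 with no floor and -0.37 with the floor at the 40th percentile. Without Het replicate 2 it was -0.52.

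Other genes of the pathway were taken from lists drawn up with the members, using the brightest probe set of each gene and leaving the members out. No gene of these lists passed limma's adjusted test in any comparison. Of the further antiviral interferon-stimulated genes, 38 of 50 had a probe set and 23 reached the filter. Their median differences from WT were -0.13 and -0.03 for the Het arrays and -0.07 for Hom, beside 0.02 and -0.05 in Het and 0.02 in Hom over 7314 genes. None was 2-fold higher or lower in both Het arrays, against 0.301% and 0.26% of those genes, and none was 2-fold higher or lower in Hom, against 0.697% and 0.438%. Highest by the Het mean were Ifitm1 (1.24), the exonuclease Isg20 (1.05, at 133.7 and 466.5 in Het, 157 in Hom and 120.4 in WT) and Trim30a (0.48), and lowest were Uba7, the activating enzyme of Isg15 conjugation (-0.99, at 85.5 and 138.2 in Het, 117.9 in Hom and 215.6 in WT), Lgals3bp (-0.92) and Rtp4 (-0.84). In Hom the extremes were Trim30a (0.72), Oas1a (0.59) and Oasl1 (0.55) above WT and Uba7 (-0.87), Ifi35 (-0.75) and Rtp4 (-0.52) below it. Isg20, like Ifitm1, was far higher in Het replicate 2 than in Het replicate 1. For Het, other probe sets of Uba7 lay above WT (0.18 and 0.34) and that of Trim30a below it (-0.50), so the Het direction of these genes depends on the probe set. For Hom, the other probe set of Trim30a was at 0.63, and those of Uba7 were at 0.18 and -0.33. Mx1 and Mx2, GTPases that block virus replication, were named after their values were seen and were at or below the floor on all arrays.

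Of the list of interferon gamma-induced GTPases and chemokines, 17 of 21 genes had a probe set and 7 reached the filter, none of them a chemokine. Of these 7 genes 4 had all 3 mutant arrays below WT, against 19.9% of 7314 genes, and the medians were -0.34 and -0.44 in Het and -0.27 in Hom. Igtp, a GTPase that acts on pathogen vacuoles, read 159 and 210.2 in the Het arrays, 177.1 in Hom and 349.6 in WT. Gbp2, a guanylate-binding protein, read 53.3 and 62.6 in Het, 65.5 in Hom and 92.2 in WT, and Iigp1 read 280.1 and 260.5 in Het, 294.3 in Hom and 354.1 in WT. Ifi47 was lowest in Hom, at 51.2 against 88.8 in WT. Against that direction, Ifi30, a lysosomal thiol reductase that antigen-presenting cells also express without interferon, read 132.6 and 472.9 in Het, 153.3 in Hom and 168.3 in WT and was high in Het replicate 2 alone. The remaining extremes were Irgm1 (-0.19 for Het, 0.17 for Hom) and Gbp7 (0.18 for Hom).

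Genes of class I antigen processing gave no common direction, with medians of -0.30 and 0.03 in Het and -0.19 in Hom over 9 genes. The immunoproteasome subunits differed from each other: Psmb8 read 68.3 and 115.7 in Het, 79.3 in Hom and 116.1 in WT, and Psmb10 197.3 and 170.6 in Het, 177.7 in Hom and 146.7 in WT. Tapbp, the tapasin that loads peptides, lay below WT by 0.48 in Het and 0.50 in Hom, and Tap1 lay 0.40 below it in Hom. H2-K1 (-0.26 for Het, 0.51 for Hom) and H2-D1 (0.12 and 0.27) are class I heavy chains whose probe sets can read one another. Other probe sets of H2-D1 reached -1.10 for Het, and 1 of H2-K1 was at -0.24 for Hom. Erap1 was at -0.03 for Het.

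Upstream of the members, 13 genes of receptors and JAK-STAT signalling had medians of -0.07 and -0.08 in Het and 0.11 in Hom. Both receptor chains of type I interferon were measured: Ifnar1 read 254.2 and 164.4 in Het, 201.7 in Hom and 153.3 in WT, and Ifnar2 194.6 and 303.2 in Het, 199.8 in Hom and 264.2 in WT. Ifngr1, a chain of the interferon gamma receptor, lay 0.21 above WT in Het and 0.49 in Hom. Socs3, an inhibitor of JAK signalling that many cytokines induce, was the only gene of these lists that reached the filter and was 2-fold apart from WT in Hom, at 68.8 and 165.9 in Het, 193.7 in Hom and 93.8 in WT, where 0.697% of all genes were 2-fold higher and 0.438% lower. Jak2 lay below WT on all mutant arrays (144.4 and 186.9 in Het, 147.7 in Hom and 221.9 in WT), Jak1 was at -0.23 and Stat3 at -0.51 for Het, and Irf9 read 103 and 92.9 in Het, 101.7 in Hom and 110.4 in WT. Other probe sets of Socs3 (1.25 and 0.03 for Hom), Jak1 (0.02 and 0.42 for Het), Jak2 (0.07 for Het), Stat3 (-0.19 and 0.03 for Het) and Ifnar2 (0.65 for Het) gave other sizes or directions.

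Genes of nucleic acid sensing and interferon induction had medians of 0.11 and -0.02 in Het and -0.02 in Hom over 11 genes. None was 2-fold higher or lower than WT in Het replicate 1 (0.82% and 1.04% of all genes), Het replicate 2 (2.43% and 3.9%) or Hom (0.697% and 0.438%). The highest were Sting1, the adaptor of cytosolic DNA sensing (0.22 for Het, 0.43 for Hom), Azi2 (0.18 and 0.51) and Tlr4 (0.12 and 0.20). The lowest were Mavs, the adaptor of RNA sensing (-0.34), Irf5 (-0.20) and Tlr3 (-0.17) for Het and Tlr3 (-0.36), Tbk1 (-0.17) and Rnaseh2c (-0.09) for Hom. Other probe sets had the opposite sign for Mavs (0.54 for Het) and, in Hom, for Tlr3 (0.39), Tbk1 (0.48), Tlr4 (-0.20) and Rnaseh2c (0.03 and 0.44). Of the interferon genes themselves, 9 had a probe set, 0 reached the filter and 4 were at or below the floor on all arrays.

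**Figure D4:**
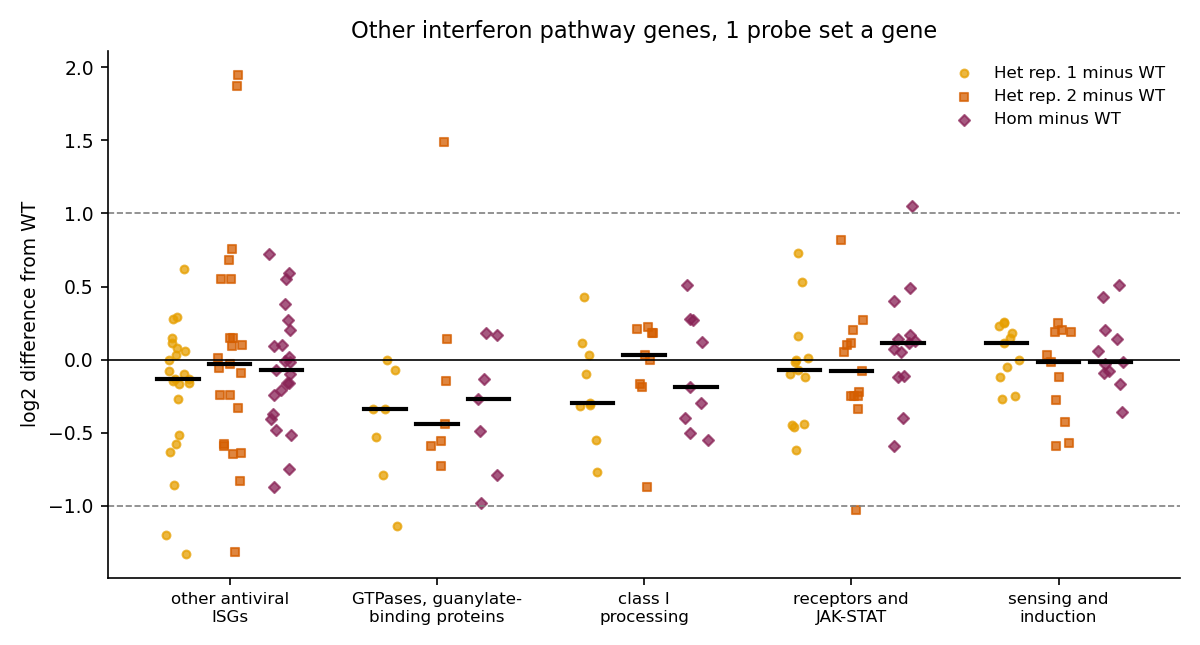
Log2 difference from WT (vertical axis) of genes that reached the level filter in 5 interferon pathway lists, 1 point for each gene and mutant array, with black bars at the medians and dashed lines at 2-fold. Points outside the dashed lines belong mainly to the Het arrays, and the median of the GTPase list lies below 0 on all 3 mutant arrays, at -0.34 and -0.44 in Het and -0.27 in Hom.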

How the data were processed

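Intensities, 1 for each of 22690 probe sets on 4 arrays, were used as deposited; the software that made them is not given in the sources used here. The intensities were already scaled by the authors, since the mean after trimming 2% at each end was 150.1 on every array, so no further scaling was applied. Centring on a common median, which raises Het replicate 2 by 0.19 log2 units, was an alternative. Gene names came from GEO's annotation of the array, and outdated symbols were replaced where the gene ID matched RefSeq: 20393 had 1 gene, 691 several and 1606 none. The 64 control probe sets were left out.

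Values were floored at 18.9 and log2 transformed, and 11316 probe sets with a mean of at least 62.6 entered limma 3.58.1 under R 4.3.3 (lmFit, eBayes, Benjamini-Hochberg over all of them, threshold 0.05). A fit of 3 groups takes its spread from the Het arrays alone (1 residual degree of freedom). It applies that spread to WT and Hom, which have 1 array each. The allele fit has 2 residual degrees of freedom. In both, eBayes draws the spread of each probe set toward that of all probe sets fitted. SEs of the filtered and unfiltered fits are therefore not alike. The Het arrays shared 82 identical values and were counted separately. The fits were tested on simulated data. Size limits were 2-fold and 1.5-fold.

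The members and all gene lists were chosen with earlier results of these data known. Every member probe set is named; each pathway list gives its 3 highest and 3 lowest genes for Het and for Hom against WT. Promoters were read from RefSeq tables. Figures used matplotlib 3.10.9 in Python 3.11.15.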

Additional observations from a re-analysis of the deposited data

How the results depend on the processing

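Of 176 recomputed member values 13 changed sign, 6 of them with all arrays kept (Irf1, Ifit1, Ifitm3 and Samhd1). No member passed limma under any setting that tested it. Ifit1, Ifit3, Oasl2 and Bst2 did not reach the level filter, so the main fit and the fit with eBayes trend and robust did not test them. With no filter 0 of 22626 probe sets passed in any comparison. Calls over all probe sets for Het against WT were 1 with a filter at the 75th percentile and 1 with the mean of a gene's probe sets (Ppbp each time), and 3 with eBayes trend and robust (Ppbp, Clec1b and Eln), which also gave 1 for Hom against Het (Ppbp); these genes were chosen after their values were seen. The 2-fold counts followed the level filter, the size limit and the arrays kept. In the order higher and lower for both Het arrays against WT, Hom against WT, Hom against both Het arrays and Het replicate 2 against Het replicate 1, they were 33, 33, 79, 61, 26, 27, 439 and 691. With no filter they were 100, 180, 430, 359, 189, 96, 728 and 1520, with the filter at the 75th percentile 5, 6, 12, 21, 1, 4, 218 and 248, with the mean of a gene's probe sets 18, 18, 41, 29, 14, 10, 198 and 326, and at 1.5-fold 154, 213, 483, 373, 222, 144, 1407 and 2108. With the brightest probe set of a gene those that moved were 19 lower for Het, 51 and 32 for Hom, 15 and 12 for Hom against Het, and 247 and 345 between the Het arrays. Quantile normalization gave 17 higher for Hom against Het. Median centring gave 21 lower for Het, 13 higher for Hom against Het, and 929 and 349 between the Het arrays. Leaving out 1 Het array gave 89 to 296 higher and 130 to 524 lower for Het, and 115 to 537 and 72 to 284 for Hom against Het, since 1 array then replaced 2. The member median moved in Het replicate 1 to 0.053 with the brightest probe set of a gene, in Het replicate 2 to -0.169 with median centring and -0.223 with the brightest probe set, in Hom to -0.315 with no floor, and between the Het arrays to 0.13 with median centring, against -0.127. For Samhd1 the brightest probe set was the one that lay above WT on every mutant array. Apart from these constructions the cause was not tested. With 1 Het array left out the 3-group fit has no residual degrees of freedom, so that fit gives no limma count. No paired analysis was possible because WT and Hom have 1 array each and share no pair of replicate numbers with Het. Bst2 lies near the floor, and Irf7, Ifit1 and Ifit3 lie near the arrays' median intensities of 54 to 65.5. Oasl2 lies near those medians in Hom and WT, but its Het values of 32.8 and 33 lie lower, between the floor and the medians. These levels limit what the differences of these genes can show.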

Other observations

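Among interferon gamma-induced GTPases that did not reach the level filter, Gbp3 and Irgm2 were singled out after their values were seen. Gbp3, a guanylate-binding protein, read 33.8 and 29.3 in the Het arrays, 33.8 in Hom and 119.6 in WT. Irgm2, an immunity-related GTPase, read 33.4 and 60.8 in the Het arrays, 11.6 in Hom and 104 in WT. Both were highest on the WT array, as were Igtp, Gbp2 and Iigp1, and each of these values rests on the same single WT array. Other GTPases of the list went another way. Gbp2b, also below the level filter, was lowest in WT, at 15.3 and 26.6 in Het, 24.1 in Hom and 11.4 in WT. Irgm1 and Gbp7 were highest in Hom, at 130.2 against 115.6 in WT and at 128 against 113. Rsad2 (viperin), an interferon-induced enzyme that makes a chain-terminating nucleotide, read 476.6 and 683.9 in the Het arrays, 471.9 in Hom and 466.3 in WT, also chosen after its values were seen; its other 2 probe sets gave -0.79 and 0.44 for Het against WT.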
